A study of Mus musculus with 6 samples.

Results

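Crh, Crhbp and Crhr1 were followed through hippocampal RNA-seq of 3 wild-type (WT) mice and 3 knock-in (TG) mice. Corticotropin-releasing hormone, encoded by Crh, is the neuropeptide with which the brain starts the hormonal stress response. In the hippocampus it is made mainly by GABAergic interneurons and acts locally on excitatory neurons. Crhr1 encodes its main brain receptor, which couples through Gs to cAMP, and Crhbp encodes a secreted protein that binds the peptide and keeps it from the receptor. These are 3 of the 54532 genes of the deposited table. Crh was chosen by its measured values, because it was higher in TG1, TG2 and TG3 than in WT1, WT2 and WT3, so its difference is described here and not tested. Crhbp and Crhr1 were taken as the binding protein and receptor of the same peptide and were tested.

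The TG mice carried the amino acid changes G82R and L85P, both introduced by CRISPR/Cas9 into Slc1a2, on a C57BL/6N background. Slc1a2 encodes GLT-1, the main glutamate transporter of astrocytes. The labels record genotype as the only variable and name no agent. In the paper, the controls were wild-type littermates. Its behavioral tests, which included electrical shocks, used as many variant mice as were obtained. The paper does not state whether the sequenced tissue was taken after those tests. Age, zygosity and sex of the sequenced mice were not given in the sources used here, and the paper's mice included males and females. Ddx3y, a gene of the Y chromosome, was at 10.6 to 12.3 FPKM in every library, and Eif2s3y of the same chromosome was at 5.15 FPKM or more. Xist, the X chromosome gene read as a female marker, was at 0.0181 FPKM or less in every library. By these markers every library reads as male. The labels number the mice within each group without saying how the litters or dissections fell, so p-values measure the spread between these 6 samples.

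The 6 libraries held 16081281 to 18751057 reads on genes. Levels are in FPKM, read numbers scaled to gene length and to sequencing depth, and fold changes are differences of log2(FPKM + 0.1), TG minus WT. Of 20952 genes whose FPKM averaged 0.1 or more, limma called 2 at an adjusted p under 0.05, which is 0.00955%, and neither belongs to the genes described here. In TG, 3.13% were above and 2.78% below WT at an unadjusted p under 0.05, and in 6.35% the TG libraries were all above the highest WT library. The median fold change of all genes was 0.00 on the log2 scale. Slc1a2 itself was at 202, 199.5 and 177 FPKM in WT1, WT2 and WT3 and at 222, 207 and 217 FPKM in TG1, TG2 and TG3 (log2 fold change 0.16, limma adjusted p = 0.789), and gene-level values do not show which allele a read came from. TG1 and TG2 stood apart from the other 4 libraries in genes of the choroid plexus, the epithelium that makes cerebrospinal fluid. The summed level of 12 such genes was 82.7 to 111 FPKM in WT, 1339 in TG1, 4189 in TG2 and 92.5 in TG3, with 8 of the 12 above WT at an unadjusted p under 0.05. That count was 0 without WT2, WT3, TG1 or TG2, 1 without WT1 and 12 without TG3. It was 1 without a trend in the variance prior, 4 with limma-voom and 7 with a pseudocount of 1 or no filter. With protein-coding genes only or a replicate block it was 12. Kcnj13, a potassium channel gene with the smallest p of these, was at 0.244 to 0.511 FPKM in WT and at 4.98, 13.0 and 0.610 FPKM in TG1, TG2 and TG3.

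Crh is a short gene of 2 exons on the minus strand of chromosome 3, from 19693401 to 19695396 (GRCm38), and the second exon holds the whole hormone. The stretch that encodes it is shown beside that of urocortin (Ucn), the closest relative measured here, because reads of the ligands can be kept apart only where their sequences differ. Each sequence reads 5′ to 3′ along the coding strand, with capitals for the codons of the longest run of residues that both peptides share. Both genes lie on the minus strand, Crh at chr3:19693922-19694044 and Ucn at chr5:31138161-31138280 of GRCm38, and the letters come from GENCODE M21 transcripts.
Crh: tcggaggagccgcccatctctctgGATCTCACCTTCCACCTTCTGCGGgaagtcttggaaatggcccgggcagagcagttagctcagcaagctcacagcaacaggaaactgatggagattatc
Ucn: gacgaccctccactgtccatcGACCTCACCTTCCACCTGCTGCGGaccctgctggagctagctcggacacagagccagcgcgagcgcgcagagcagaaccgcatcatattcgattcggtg
The shared run covers 8 residues, and 22 of its 24 bases are identical. Over the aligned peptides, 18 of 40 residues (45.0%) and 65 of 120 bases (54.2%) are the same. No stretch of 50 bases of Crh occurs in the transcripts of any other gene of the annotation, and the same holds for Ucn, Ucn2, Ucn3, Crhr1, Crhr2 and Crhbp.

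Crh was the lowest of the 3 genes, with 1.11, 1.08 and 1.17 FPKM in WT1, WT2 and WT3 and 1.91, 1.69 and 2.06 FPKM in TG1, TG2 and TG3. The groups did not overlap, and the lowest TG library lay 0.517 FPKM above the highest WT library. The mean was 1.12 ± 0.0487 FPKM in WT and 1.89 ± 0.184 FPKM in TG (SD, n = 3 each), which is 68.5% higher in TG. As a separate measure, the difference of mean log2(FPKM + 0.1) was 0.70, and the added 0.1 lowers it at such levels. In hippocampal tissue, more cells that make Crh and more Crh RNA per cell cannot be told apart.

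**Figure D1:**
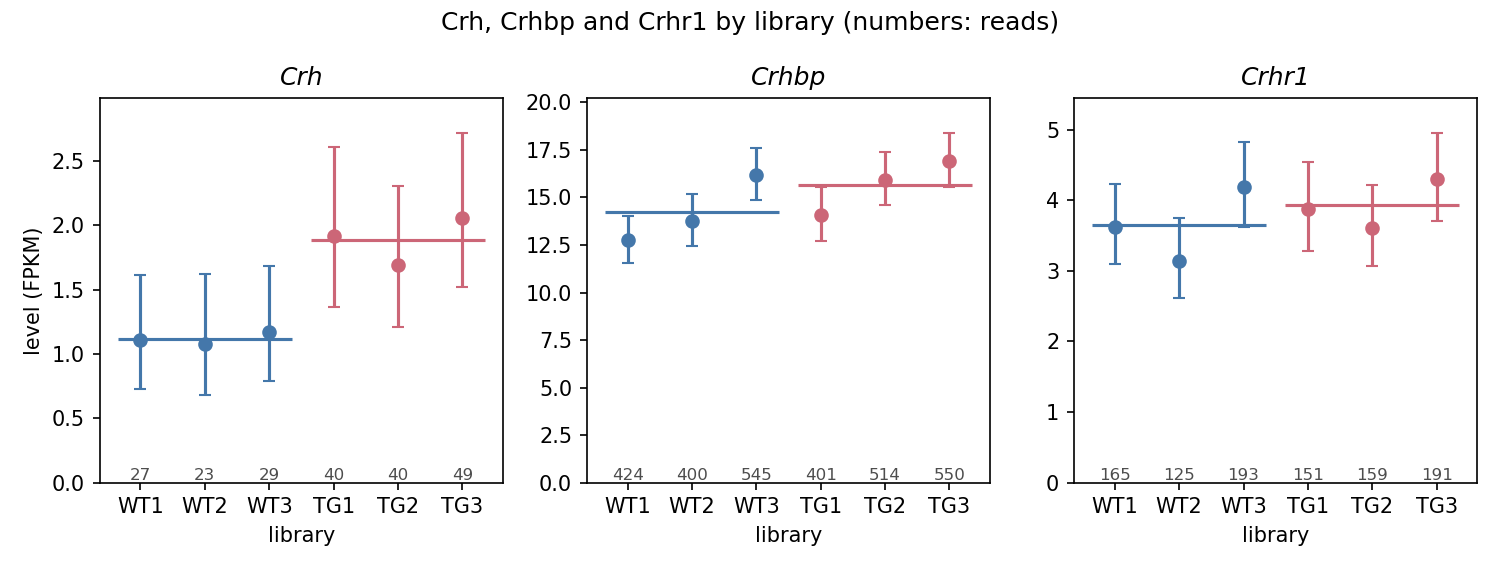
Level of Crh, Crhbp and Crhr1 in FPKM in each of the 6 libraries (blue WT, red TG). Points are libraries, horizontal lines are group means, bars are exact Poisson 95% intervals for counting error alone, and the number at the foot of each bar is the read count. Crh in TG lies above WT in all libraries, with overlapping counting intervals, while Crhbp and Crhr1 overlap between the groups.

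The Crh values rest on few reads. WT1, WT2 and WT3 held 27, 23 and 29 reads of the gene, and TG1, TG2 and TG3 held 40, 40 and 49, so all WT libraries together had 79 reads and all TG libraries 129. The exact Poisson 95% interval reached 1.69 FPKM for WT3, the highest WT library, and began at 1.21 FPKM for TG2, the lowest TG library, so single libraries of the groups overlap in counting error. Counting alone would give a coefficient of variation of 19.5% in WT and 15.2% in TG, and the observed values were 4.35% and 9.76%. Libraries of the same group thus lay closer to each other than their read numbers would give on average, and these small SDs understate the uncertainty of the Crh means. The libraries carry no molecular identifiers, so reads can be copies of 1 molecule and the intervals cover counting error only. Without TG1 and TG2, the libraries high in choroid plexus genes, the difference of TG3 from WT was 0.82 on the log2 scale. Crh was selected for higher values in each TG library, so this difference could not have turned negative. The part of choroid plexus tissue in the Crh values was not tested.

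The other ligands of the family were near the limit of detection. Ucn, Ucn2 and Ucn3 encode the urocortins, of which urocortin binds both receptors and the others prefer Crhr2. Ucn had 3 reads in WT2 (0.369 FPKM) and 0 in the other libraries, where 0 reads allow a level of up to 0.318 to 0.376 FPKM. Ucn2 had 5 reads in WT1 and 1 each in TG2 and TG3, and Ucn3 had 1 read in WT1. None of these genes reached the mean level needed for testing.

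Crhr1 (chromosome 11, 104132855 to 104175523, plus strand, 13 exons) was at 3.63, 3.15 and 4.19 FPKM in WT1, WT2 and WT3 and at 3.88, 3.61 and 4.30 FPKM in TG1, TG2 and TG3. The groups overlapped, with WT3 above TG1 and TG2. The means were 3.65 ± 0.523 and 3.93 ± 0.349 FPKM (SD, n = 3 each). The log2 fold change was 0.11 with a SE of 0.130 and a 95% interval of -0.20 to 0.41 (limma adjusted p = 0.843), so folds from 0.871 to 1.33 lie within the interval. An exact two-sided permutation test of the FPKM gave p = 0.5, where 0.1 is the smallest p that 3 against 3 allows. Each library held 125 to 193 reads of Crhr1.

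Crhr2 encodes the second receptor of the family, which prefers the urocortins. Its levels were 0.455, 0.508 and 0.428 FPKM in WT1, WT2 and WT3 and 0.605, 1.28 and 0.281 FPKM in TG1, TG2 and TG3. TG2 was the highest library of the 6 and TG3 the lowest, so the TG libraries lay on both sides of WT. The log2 fold change was 0.35 with a SE of 0.445 (limma adjusted p = 0.850), and without TG2 it was -0.12. Ttr, the transthyretin gene and the most abundant choroid plexus gene of the list, was at 1168 FPKM in TG1 and 3705 in TG2 against 49.8 to 73.0 in WT and 57.7 in TG3. The part of these cells in the Crhr2 values was not tested.

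**Figure D2:**
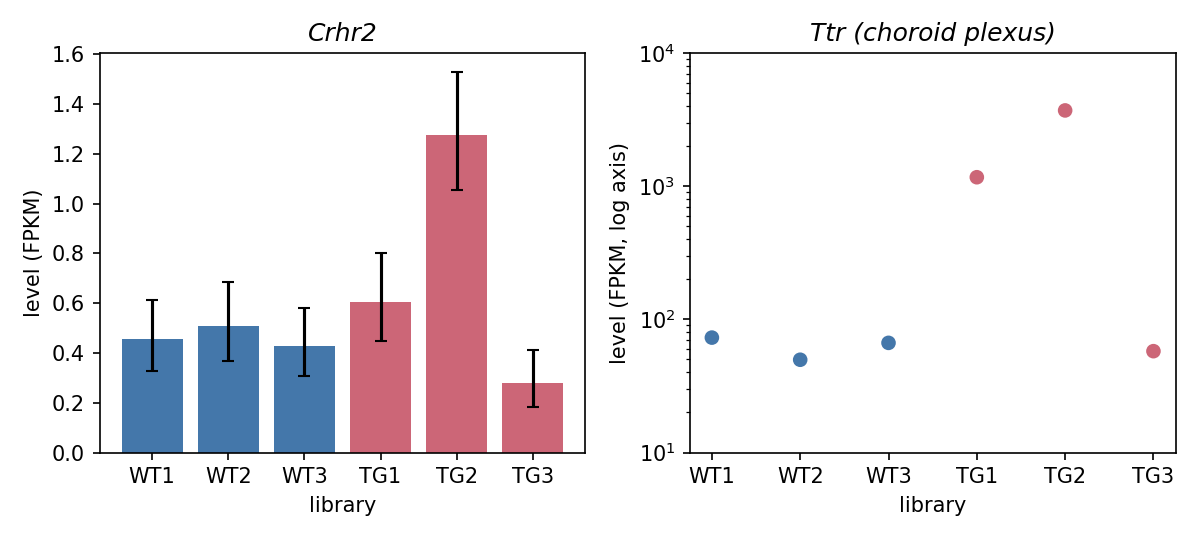
Left, level of Crhr2 in FPKM by library, with exact Poisson 95% intervals for counting error. Right, level of Ttr in FPKM on a log axis (blue WT, red TG). Both genes are highest in TG2 at 1.28 and 3705 FPKM and second highest in TG1, and TG3 is at 0.281 and 57.7 FPKM.

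Crhbp (chromosome 13, 95431371 to 95444924, minus strand, 7 exons) was the most abundant of the 3 genes. It was at 12.7, 13.8 and 16.2 FPKM in WT1, WT2 and WT3 and at 14.1, 15.9 and 16.9 FPKM in TG1, TG2 and TG3. WT3 lay above TG1 and TG2, and the groups overlapped. The means were 14.2 ± 1.76 and 15.6 ± 1.44 FPKM (SD, n = 3 each). The log2 fold change was 0.14 with a SE of 0.111 and a 95% interval of -0.12 to 0.40 (limma adjusted p = 0.789), which covers folds from 0.919 to 1.32. The exact two-sided permutation p was 0.3. With 400 to 550 reads a library, counting alone would give a coefficient of variation of 4.68% in WT and 4.53% in TG, and the observed values were 12.4% and 9.22%, so the spread of Crhbp lay mostly beyond counting error.

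The order Crhbp, Crhr1, Crh, Crhr2 held in all 6 libraries on the FPKM scale, which is per gene length. Crhbp stood 3.51 to 4.42 times above Crhr1, and Crhr1 stood 2.03 to 3.57 times above Crh, with no overlap between the ranges of neighbouring genes. Crh and Crhr2 were the neighbours whose ranges overlapped, with Crhr2 in TG2 above Crh in WT. The ratio of Crhbp to Crhr1 was 3.51, 4.37 and 3.86 in WT1, WT2 and WT3 and 3.63, 4.42 and 3.94 in TG1, TG2 and TG3, so it overlapped between the groups. As a description of the selected gene, the ratio of Crhbp to Crh was 11.5 to 13.8 in WT and 7.35 to 9.42 in TG. Among 17873 protein-coding genes above 0, Crh stood at the 37.8th percentile of mean level, Crhr1 at the 52.9th and Crhbp at the 81.7th.

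The next step in the pathway is the cAMP cascade below Crhr1. In a list of 28 genes for the Gs subunit, adenylyl cyclases, protein kinase A, phosphodiesterases, CREB and its coactivators, and the kinase and arrestins that shut the receptor off, 28 were tested and 0 passed an unadjusted or adjusted p of 0.05, with 1 higher at an unadjusted p when either WT1 or WT2, or TG1 and TG2 together, were left out. The median log2 fold change was 0.10, and 25 of the 28 were positive, against 10398 of the 20952 genes tested. Without WT3 the median was 0.04 and 19 were positive. These RNA levels do not measure the activity of the cascade. Adcy8, a calcium-stimulated cyclase, had the smallest p of the list and was at 2.49, 2.79 and 2.94 FPKM in WT1, WT2 and WT3 and at 2.98, 3.03 and 3.89 FPKM in TG1, TG2 and TG3 (limma adjusted p = 0.789). Prkar1a, which encodes a regulatory subunit of protein kinase A, was the most abundant gene of the list. It was at 179.4, 180.5 and 202.9 FPKM in WT1, WT2 and WT3 and at 181.1, 170.0 and 174.0 FPKM in TG1, TG2 and TG3. The groups overlapped, with TG1 above WT1 and WT2.

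Genes that CREB is known to switch on were described in the same way. Of 17 such genes, 4 were higher in TG at an unadjusted p under 0.05, against 3.13% of all genes, and 0 were lower. They were Sik1, a kinase that restrains CREB coactivators (log2 fold change 0.39), the clock gene Per1 (0.29), the synaptic immediate early gene Arc (0.48) and the nuclear receptor gene Nr4a2 (0.29). For Sik1 the levels were 3.32, 4.50 and 3.64 FPKM in WT1, WT2 and WT3 and 5.39, 4.72 and 4.92 FPKM in TG1, TG2 and TG3, with no overlap, and the limma adjusted p was 0.786. The count depended on single libraries, as it was 0 without TG1, 0 without WT3, 1 without WT1, 1 without TG3, 6 without TG2 and 1 without TG1 and TG2. Without WT1, 2 other genes of the list were lower. The median of the list was 0.13, and 12 of the 17 were positive, against 10398 of the 20952 genes tested. Unlike Sik1, Arc overlapped between the groups, with TG2 at 62.9 FPKM below WT2 at 64.9 FPKM. Sst belongs both to this list and to the interneuron markers.

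Upstream of Crh, 7 of 9 genes for regulators of its transcription were tested, and 0 passed an unadjusted p of 0.05 in limma (median log2 fold change 0.13). Nr4a1, an immediate early nuclear receptor gene with the smallest p of these, was at 21.1, 29.9 and 29.8 FPKM in WT1, WT2 and WT3 and at 37.0, 26.9 and 38.9 FPKM in TG1, TG2 and TG3, with TG2 inside the WT range. The median was 0.07 without WT3 and 0.06 without TG3, and 1 gene passed without TG2, or without TG1 and TG2. Of 10 genes of the stress axis, which encode other hormones of the axis, their receptors and glucocorticoid response genes, 9 were tested and 1, Sgk1, was higher at an unadjusted p under 0.05, against 3.13% of all genes. The count was 2 without WT3 and 0 with any other single library left out. Sgk1 is a glucocorticoid-induced kinase and was at 20.6, 28.3 and 29.1 FPKM in WT1, WT2 and WT3 and at 30.1, 34.2 and 32.8 FPKM in TG1, TG2 and TG3 (log2 fold change 0.33, or 0.17 without WT1, limma adjusted p = 0.786), and its unadjusted p was above 0.05 without a trend in the variance prior. The median of the stress axis list was -0.05 (0.00 without WT2 and 0.06 without WT3), so its members lay on both sides of 0.

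**Figure D3:**
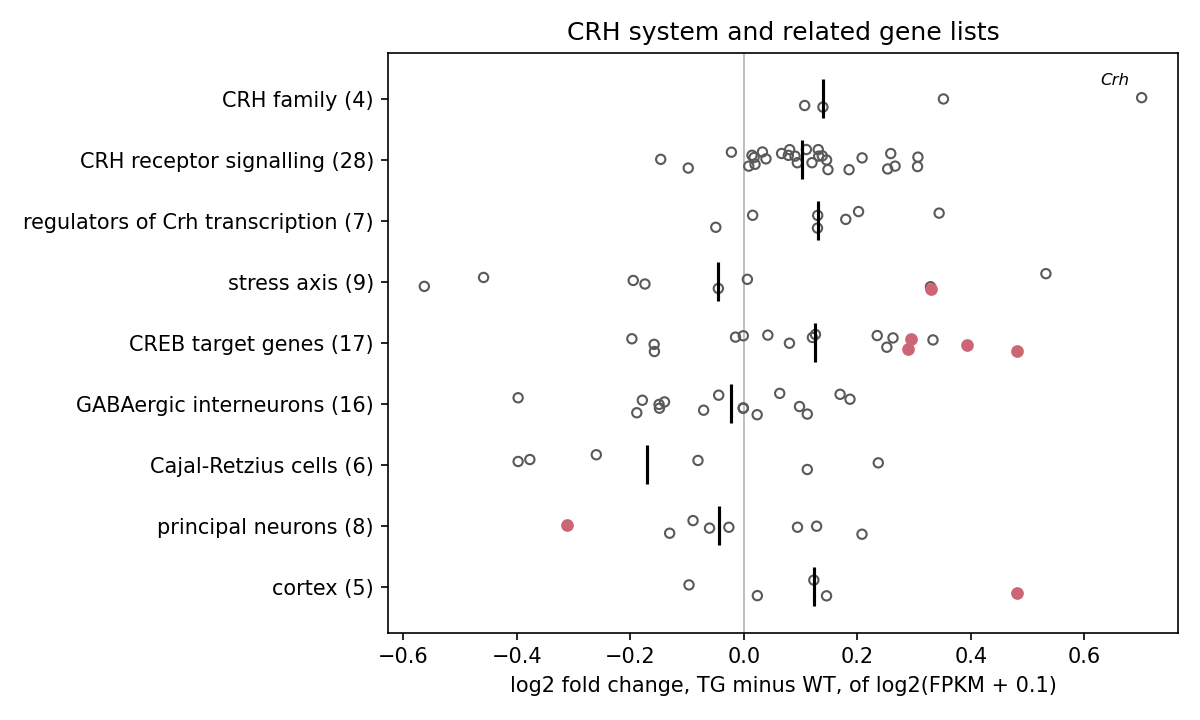
Log2 fold change (TG minus WT, of log2(FPKM + 0.1)) of each tested gene of 9 lists, with the number tested in parentheses. Filled points passed an unadjusted p of 0.05, black bars are list medians, and Crh, which was not tested, is drawn open and left out of its median. The CREB target list holds 4 filled points, and the stress axis, principal neuron and cortex lists 1 each.

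The full cAMP response element, TGACGTCA, which reads the same on both strands, was searched in promoter windows from 250 bases before to 50 after the start (RefSeq, GRCm38.p6). It was found in 1.79% of 32851 windows, and in 421 (3.25%) of the 12938 tested genes with a window. Crh was not searched here. The windows of Crhbp and Crhr1 did not hold these letters. That of Crhbp held the first 5 bases of the element, TGACG, on at least 1 of the strands. Of the 421 genes, 2.14% were higher and 2.38% lower in TG at an unadjusted p under 0.05, against 2.94% and 2.51% of all genes with a window. Their median log2 fold change was -0.04, near the 0.00 of all genes with a window.

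Markers of the cells that make or receive the peptide were read beside Crh. Of 16 genes of GABAergic interneurons, 0 passed an unadjusted p of 0.05 in limma, and 1 was lower with upper quartile scaling, protein-coding genes only, limma-voom, without TG1, or without TG1 and TG2. The median log2 fold change was -0.02, which turned to 0.02 without TG2 and to 0.04 without WT3, and the summed level was 707 to 958 FPKM in WT and 712 to 811 in TG. Sst, the somatostatin gene of dendrite-targeting interneurons, was at 256, 266 and 356 FPKM in WT1, WT2 and WT3 and at 321, 269 and 279 FPKM in TG1, TG2 and TG3, so the groups overlapped. Of 8 genes of Cajal-Retzius cells, 6 were tested and 0 passed in limma (median -0.17, or -0.02 without WT1), and 1 was lower under the settings just named, with a summed level of 24.9 to 31.8 FPKM in WT and 19.1 to 26.7 in TG. The smallest p of both lists belonged to Calb2, a calcium-binding protein gene shared by them (limma adjusted p = 0.786). Calb2 was at 24.2, 18.5 and 21.3 FPKM in WT1, WT2 and WT3 and at 19.1, 17.5 and 12.4 FPKM in TG1, TG2 and TG3. Its groups overlapped, with TG1 above WT2. Of 8 genes of principal neurons, 0 were higher in limma and 1 was lower, against 2.78% of all genes. The lower count was 0 without a trend in the variance prior, without WT2, TG1, TG2 or TG3, and without TG1 and TG2, and 1 gene was higher without WT3. The median was -0.04, and it was positive without WT2 (0.02), TG2 (0.01) or TG3 (0.02). Camk2a, a synaptic kinase and the most abundant gene of the list, was at 449 to 559 FPKM in WT and 519 to 608 in TG. The lower gene was Calb1, a calcium buffer of granule cells, at 25.8, 28.2 and 34.6 FPKM in WT1, WT2 and WT3 and at 23.7, 24.4 and 22.6 FPKM in TG1, TG2 and TG3 (log2 fold change -0.31, limma adjusted p = 0.786).

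Regions near the hippocampus also express Crh, so their markers were read as well. Of 5 cortex genes, 1 was above WT at an unadjusted p under 0.05, against 3.13% of all genes, and 0 passed an adjusted p of 0.05 in limma (median log2 fold change 0.12). The median was 0.01 without TG3, 0.05 without WT2 and 0.30 without TG1 and TG2. The gene past the unadjusted threshold was Cux2. Cux2, a gene of upper cortical layers, was at 2.79, 2.38 and 2.26 FPKM in WT1, WT2 and WT3 and at 3.24, 3.25 and 4.03 FPKM in TG1, TG2 and TG3. Rprm, the most abundant cortex gene of the list, was at 24.7 to 26.6 FPKM in WT and at 28.9, 23.2 and 26.9 FPKM in TG1, TG2 and TG3. The summed level of the cortex list was 50.2 to 54.3 FPKM in WT and 53.9, 47.7 and 58.5 FPKM in TG1, TG2 and TG3. TG2 was the lowest library of the 6 and TG3 the highest. The part of cortical tissue in the Crh values was not tested.

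**Figure D4:**
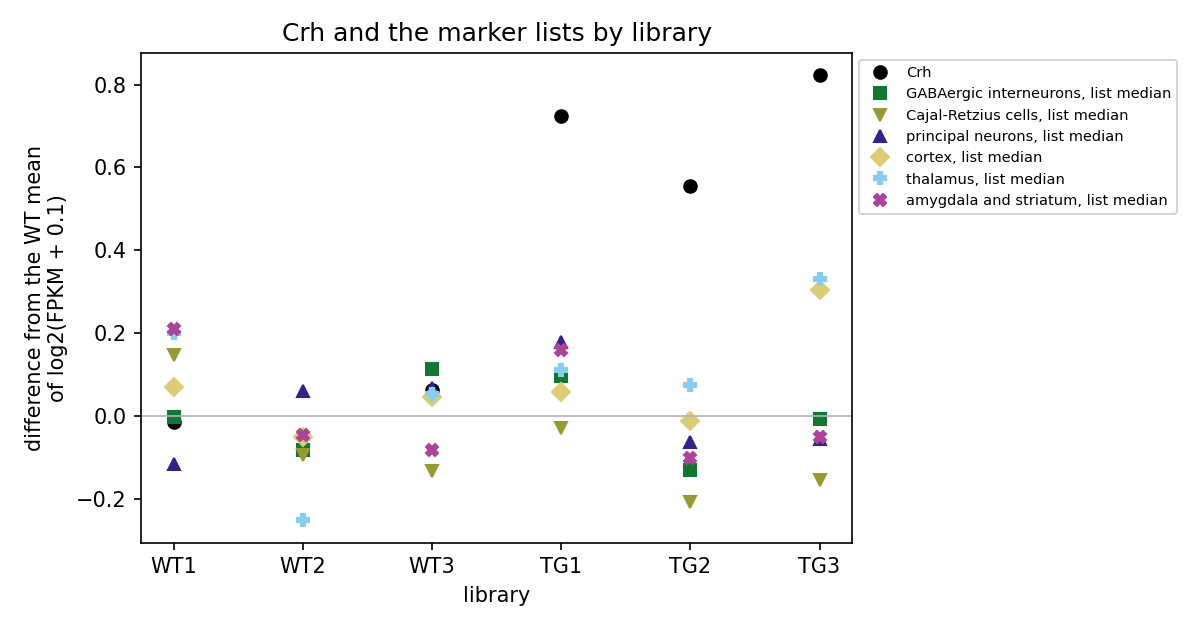
Difference of each library from the WT mean of log2(FPKM + 0.1), for Crh and for the median gene of 6 marker lists. Crh was selected for its high TG values, so its place above these medians in TG follows from that choice. In TG3 the thalamus list is at 0.33 and the cortex list at 0.30, and the choroid plexus list, at 3.27 in TG1 and 4.74 in TG2, is not drawn.

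Of 6 thalamus genes 0 passed an unadjusted p of 0.05 in limma (median 0.24, or 0.06 without WT2 and 0.13 without TG3), with 1 higher in limma-voom and without WT1, and 1 lower without WT3. Rora, a nuclear receptor gene with the smallest p of these, was at 2.56 to 3.13 FPKM in WT and 3.09 to 3.40 in TG, and Ntng1, the most abundant, at 5.04 to 5.96 FPKM in WT and 4.98 to 5.03 in TG. Of 8 genes of amygdala and striatum 0 passed in limma, with 1 higher without TG3 (median 0.02, or 0.12 without WT1 and -0.11 without WT3), among them Ppp1r1b, a gene of striatal output neurons, at 15.7 to 18.4 FPKM in WT and 16.8 to 27.3 in TG. Their summed levels were 12.0 to 14.2 FPKM in WT and 12.7 to 16.0 in TG for the thalamus, and 29.0 to 32.1 FPKM in WT and 31.6 to 40.1 in TG for amygdala and striatum. The hypothalamus, where Crh neurons of the stress axis lie, was represented by 8 genes with a summed level of 2.6 to 8.8 FPKM in WT and 2.8 to 4.7 FPKM in TG, so the ranges overlapped. The most abundant of them was Avp, the vasopressin gene, at 1.41 to 5.79 FPKM in WT and 0.986 to 3.48 in TG. Sim1, a transcription factor of those neurons, was at 0 in 5 libraries and at 0.0128 FPKM in TG3. Of the 5 tested, 1 was lower, against 2.78% of all genes, and this was Hcrt, on 3 reads or fewer in every library. Blood genes numbered 5, with 0 passing in limma, 1 lower without WT2, a median of -0.13 (-0.29 without WT2 and -0.03 without WT1 or TG3) and a summed level of 143 to 202 FPKM in WT and 159 to 165 in TG. Hbb-bs, a beta globin gene and the most abundant of them, was at 73.8 to 111 FPKM in WT and 78.7 to 83.3 in TG.

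The nearest protein-coding genes on both sides of each locus were also read. Trim55 ends 980 bases from Crh on the opposite strand and was listed at 0 in every library, and Cp, the ceruloplasmin gene 261658 bases away on the other side, had a log2 fold change of 0.19. Beside Crhbp lay Aggf1 (0.01) and S100z (listed at 0), and beside Crhr1 lay Arf2 (-0.11) and Sppl2c (listed at 0). No annotated gene overlapped the 3 loci.

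Genes with the most similar pattern over the 6 libraries were taken from 11917 protein-coding genes with a mean of at least 1 FPKM. For Crh they were Pak4, Tent5a and Faap100, with Pearson r of 0.995, 0.984 and 0.979. For Crhbp they were Hacd2, Ddit4l and Cxcl14 (0.983, 0.980 and 0.968), and for Crhr1 Gpr137c, Phf21b and Nxph3 (0.992, 0.989 and 0.978). Of the 11917 genes, 67 exceeded 0.9 for Crh, 39 for Crhbp and 37 for Crhr1. The named genes are thus the highest of many comparisons over 6 libraries, and their r values were not tested. The points also share the library and its depth. Crh was selected for higher TG values, so genes with its pattern are higher in TG by that choice.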

How the data were processed

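RNA-seq of hippocampus from 3 WT and 3 TG mice was used. The authors counted reads per gene with HTSeq and deposited FPKM, 1 column per library, computed from the read number and the gene length. The submitters' processing notes name GRCm38 and mm10, and the aligner is not given in the sources used here. Of the gene identifiers, 54409 were found in GENCODE M21, 53499 with the same start and end, among them all 3 genes. The methods name Trizol and NEBNext, the labels RNeasy and SMARTER kits. Strandedness is not stated, so reads of opposite strands cannot be told apart.

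FPKM times length gave whole reads for 100% of values (tolerance 0.05), which were used for counting intervals. Tests used limma 3.58.1 in R 4.3.3 (lmFit, eBayes with trend) on log2(FPKM + 0.1) over genes with a mean of at least 0.1 FPKM, with Benjamini-Hochberg adjustment, no covariate and a threshold of 0.05. The fit was tested on simulated data. Intervals are 95%.

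The genes, lists and tests were chosen with earlier results of these data known. Named are all genes of the CRH family, from each other list its most abundant gene and that of lowest p, the nearest protein-coding neighbours, the 3 genes most similar in pattern, and Slc1a2. A gene was taken out of the cortex list and is not reported here, and the list's values are those of the other 5. Per1, Arc, Nr4a2 and Sim1 were named after their values were seen. Alternatives were the pseudocount, the filter, the variance prior, upper quartile scaling, limma-voom on recovered reads, protein-coding genes only, a replicate block and leaving out libraries. Leaving out TG1 and TG2 together was added after seeing the data.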

Additional observations from a re-analysis of the deposited data

How the results depend on the processing

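Over 17 settings, the reported one included, there were 703 alternative values. Of these, 14 reversed, and 24 were differences that moved by more than the spread between replicates or counts that moved by over 1.5 times. Tested values among the other 665 kept their direction and their side of the adjusted threshold, though not always their size. The Crh difference on the log2 scale was 0.44 with a pseudocount of 1 and 0.82 without TG1 and TG2. It ran from 0.64 to 0.77 with single libraries left out. Crh was selected with all TG libraries above all WT libraries, so leaving out libraries could change its size but not its sign. Crhbp ran from 0.06 to 0.23 and Crhr1 from 0.01 to 0.21. Genes at an adjusted p under 0.05 numbered 2 in limma and 0 with a pseudocount of 1 or 0.01, no filter, limma-voom, protein-coding genes only, the replicate block, or without TG1 and TG2. They numbered 1 with a filter at 1 FPKM and 9 without a variance trend, and 0 to 6 with single libraries left out.

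CREB targets higher at an unadjusted p under 0.05 numbered 4, and were 1 without a variance trend, 2 with the replicate block, 1 without TG1 and TG2, and 0 to 6 with single libraries left out.

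After each gene's group mean was subtracted, log2(FPKM + 0.1) of same-numbered WT and TG libraries correlated at 0.0125, 0.0434 and 0.00314. The TG library closest to WT1 and to WT2 carried the same number, and that closest to WT3 did not. With so few libraries in a group, these values cannot tell whether the numbers pair the mice. With the replicate block Crhbp was 0.14 (adjusted p = 0.785) and Crhr1 0.11 (adjusted p = 0.805), and 1 gene was lower in both the interneuron and the Cajal-Retzius lists.

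With single libraries left out, fold changes on the log2 scale ran from -0.12 (without TG2) to 0.81 for Crhr2, from -0.090 to 0.15 (without WT3) for Sst, also positive without TG2 (0.050) or TG3 (0.024), from -0.93 to 0.15 (without WT2) for Avp, and from -0.047 (without TG1) to 0.11 for Rprm, also negative without WT1 (-0.0053). They ran from -0.046 to 0.063 (without TG3) for Ddx3y, also positive without WT3 (0.030), and from -0.0072 (without TG1) to 0.035 for Aggf1, also negative without WT2 (-0.00067). Without TG1 and TG2 the sign also turned for Crhr2 (-0.56), Ppp1r1b (-0.013) and Ttr (-0.11). Read number limits Crh and the urocortins, and the cause of the other changes was not tested.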
